A study of Mus musculus with 9 samples.

Results

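Cells make cholesterol from acetyl-CoA through mevalonate and squalene, and 8 genes of this route and of its control were named for description: Hmgcs1, Idi1, Fdps, Fdft1, Sqle, Lss, Insig1 and Srebf2. They were chosen by symbol, with no measured value in the rule, though earlier results of these data were known. Of the 8, 7 had a row among the 18504 genes with a usable symbol, and Hmgcs1 was not analysed here. All 7 stood above 1 FPKM in every library, so none was lost to the filter on low values. FPKM is the number of fragments per kilobase of transcript and per mega (M) mapped fragments, so levels can be set side by side between genes.

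The study asked what the transcriptional coactivator Yap1, which the Hippo kinases restrain, does in mouse embryonic stem (ES) cells. All 9 libraries were polyadenylated RNA of J1 cells, a 129S4/SvJae line, at passage 5 to 7. The groups were Yap1 overexpression (Yap1_OE) with its control BirA, a knockout label borne by Yap1_KO1 and Yap1_KO2, set against ESC, Yap1 knockdown (Yap1_KD) with its control (Control), and knockdown in differentiated ES cells (dESC_Yap1_KD) with a differentiated control (dESC_control). Only the knockout label covers 2 libraries, and every other group is 1 library without a replicate check. The vectors, the edit, the knockdown reagent and the way of differentiation are not given in the labels. Whether the knockout-labelled pair are separate clones is not given either.

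Estimated depth ran from 9.19 M fragments in Yap1_KO1 to 22.3 M in Control. Yap1 stood at 139 FPKM in Yap1_OE against 46.7 in BirA, at 4.55 in Yap1_KD against 37.4 in Control, and at 12.5 in dESC_Yap1_KD against 78.0 in dESC_control. The knockout-labelled libraries kept Yap1 RNA, at 57.3 and 27.6 FPKM against 65.4 in ESC, so directions drawn from them are those of the libraries so labelled. The summed FPKM of 6 ES cell markers lay between 1971 and 2622 in the 7 undifferentiated libraries, was 1586 in dESC_Yap1_KD and was 1171 in dESC_control. Of 6 fibroblast markers, Col1a2, Col3a1, Postn and Dcn were under 1 FPKM in all 9 libraries. Thy1 was above 1 FPKM in every library, from 3.40 in dESC_control to 39.2 in Yap1_KO1. Col1a1 was at 5.73 FPKM in dESC_control, 1.65 in Yap1_OE, 1.40 in BirA and 1.06 in Control, and under 1 FPKM elsewhere. In this bulk RNA, fewer cells of a type and less RNA per cell cannot be told apart.

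Sterol synthesis is set by feedback. When sterols in the endoplasmic reticulum are low, the SREBP-2 protein made from Srebf2 is carried by SCAP to the Golgi, cut there, and enters the nucleus, where it raises transcription of most enzymes of the pathway. When sterols are high, INSIG proteins hold SCAP and SREBP-2 back. Insig1 is itself a target of SREBP, so its RNA is often read together with the enzymes. In the embryo the pathway supplies membrane sterol, isoprenoids for protein prenylation, and the sterol that is joined to Hedgehog ligands.

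RefSeq promoters (GRCm38.p6, 250 bases before to 50 after the start) were in hand for 4 of the 7 genes: Idi1, Lss, Insig1 and Srebf2. The sequences of Insig1, the gene that varied most over the libraries, of Srebf2, which varied least, and of Idi1, which had the lowest level, are shown. All lie on the plus strand, Insig1 at chr5:28071162-28071461, Srebf2 at chr15:82147019-82147318 and Idi1 at chr13:8885356-8885655, and capitals mark each CCAAT box, the motif bound by NF-Y, a usual partner of SREBP.
Insig1: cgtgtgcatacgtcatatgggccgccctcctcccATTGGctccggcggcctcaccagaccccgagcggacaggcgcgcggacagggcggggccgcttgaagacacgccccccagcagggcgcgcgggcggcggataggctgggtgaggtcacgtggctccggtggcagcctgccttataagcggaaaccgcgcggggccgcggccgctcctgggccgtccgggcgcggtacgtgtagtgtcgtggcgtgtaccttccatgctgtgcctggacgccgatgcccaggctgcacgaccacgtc
Srebf2: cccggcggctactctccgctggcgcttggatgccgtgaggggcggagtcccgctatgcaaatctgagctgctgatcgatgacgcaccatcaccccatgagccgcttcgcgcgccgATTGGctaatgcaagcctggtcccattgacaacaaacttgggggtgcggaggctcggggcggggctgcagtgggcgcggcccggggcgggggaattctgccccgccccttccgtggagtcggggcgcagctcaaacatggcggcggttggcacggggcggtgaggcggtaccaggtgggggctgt
Idi1: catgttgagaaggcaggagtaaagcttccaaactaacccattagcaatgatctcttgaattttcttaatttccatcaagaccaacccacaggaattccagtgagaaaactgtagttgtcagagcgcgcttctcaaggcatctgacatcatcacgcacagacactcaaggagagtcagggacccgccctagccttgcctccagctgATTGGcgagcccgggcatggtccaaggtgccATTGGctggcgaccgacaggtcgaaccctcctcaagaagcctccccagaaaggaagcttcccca
Searched on both strands, CCAAT matched 2 times in Idi1 and 1 time each in Lss, Insig1 and Srebf2, and 37.4% of 32851 mouse promoter windows of the same length held it. The GC box GGGCGG, bound by Sp1, was in all 4 windows and in 35.7% of all. The E-box CACGTG was in Insig1 and in 7.15% of all. The sterol response element, searched as TCACNCCAC (1.24% of all windows), and the TEAD motif GGAATG (14.7% of all) had 0 matches in the 4 windows, which says only that these letters are not there. Matches of different motifs overlapped 0 times in Idi1, Lss, Insig1 and Srebf2.

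The levels spanned a wide range between the genes and a narrow one between libraries. By median FPKM over the 9 libraries the order was Srebf2 (67.2), Sqle (64.0), Fdps (35.3), Fdft1 (34.5), Insig1 (30.9), Lss (29.3) and Idi1 (2.33). Srebf2 and Sqle had overlapping ranges, and both lay above every value of Fdps, Fdft1 and Lss, whose ranges overlapped with each other. Insig1 reached from the range of Lss into that of Sqle, and Idi1 lay below every value of the other genes. The highest library was 1.55 to 1.80 times the lowest for Srebf2, Sqle, Lss, Fdft1 and Fdps, 2.59 times for Idi1 and 2.78 times for Insig1.

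Idi1 encodes the isomerase that turns isopentenyl into dimethylallyl diphosphate, the last step before the isoprenoid chains are built. It stood at 2.38 FPKM in Yap1_OE against 2.32 in BirA, at 2.94 and 3.60 in the knockout-labelled pair against 2.33 in ESC, at 1.82 in Yap1_KD against 3.32 in Control, and at 1.39 in dESC_Yap1_KD against 2.28 in dESC_control. Both knockdown libraries lay below their controls and both knockout-labelled libraries above theirs. Fdps encodes farnesyl diphosphate synthase, whose product feeds both sterols and prenylation. Its values were 31.0 FPKM in Yap1_OE against 35.3 in BirA, 21.8 and 25.9 in the knockout-labelled pair against 36.4 in ESC, 35.9 in Yap1_KD against 37.8 in Control, and 31.6 in dESC_Yap1_KD against 39.2 in dESC_control. The knockout-labelled pair held the lowest Fdps values of the 9 libraries. Annotated near copies (at least 90% identity over at least 200 nt) exist for Idi1 in 4 other genes, 3 of them pseudogenes, and for Fdps in 6 other genes, 5 of them pseudogenes, so reads may have been split and these values are uncertain.

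Fdft1 encodes squalene synthase, the first step committed to sterols. It stood at 28.0 FPKM in Yap1_OE against 48.3 in BirA, at 29.2 and 30.5 in the knockout-labelled pair against 34.5 in ESC, at 47.7 in Yap1_KD against 46.1 in Control, and at 32.0 in dESC_Yap1_KD against 40.2 in dESC_control. BirA was the highest and Yap1_OE the lowest library for this gene. Fdft1 shares sequence with 1 pseudogene and with an annotated Ctsb transcript, and is uncertain to that extent. Sqle encodes squalene epoxidase, a rate-limiting step of the sterol branch. Its values were 57.5 FPKM in Yap1_OE against 65.8 in BirA, 52.3 and 54.2 in the knockout-labelled pair against 59.2 in ESC, 64.0 in Yap1_KD against 72.4 in Control, and 66.7 in dESC_Yap1_KD against 82.2 in dESC_control. Each library labelled as overexpression, knockout or knockdown thus lay below its own control for Sqle. Lss encodes lanosterol synthase, which closes the sterol rings. It was at 23.1 FPKM in Yap1_OE against 29.3 in BirA, at 21.1 and 22.1 in the knockout-labelled pair against 29.0 in ESC, at 34.2 in Yap1_KD against 35.0 in Control, and at 30.1 in dESC_Yap1_KD against 33.3 in dESC_control. These too were all below their controls, by little in the knockdown of undifferentiated cells. No near copy of Sqle, Lss, Insig1 or Srebf2 was found by the same rule.

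The regulators behaved differently from each other. Insig1 stood at 73.4 FPKM in Yap1_KD and at 67.2 in Control, while the other 7 libraries lay at 41.3 or less: 30.4 in Yap1_OE against 41.3 in BirA, 26.4 and 27.8 in the knockout-labelled pair against 30.9 in ESC, and 33.6 in dESC_Yap1_KD against 28.1 in dESC_control. The undifferentiated knockdown pair therefore stood apart from the other undifferentiated libraries, whatever the state of Yap1. Srebf2 was at 57.7 FPKM in Yap1_OE against 73.5 in BirA, at 59.7 and 57.1 in the knockout-labelled pair against 67.6 in ESC, at 67.2 in Yap1_KD against 66.2 in Control, and at 75.3 in dESC_Yap1_KD against 88.4 in dESC_control. The differentiated libraries held its highest values.

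**Figure D1:**
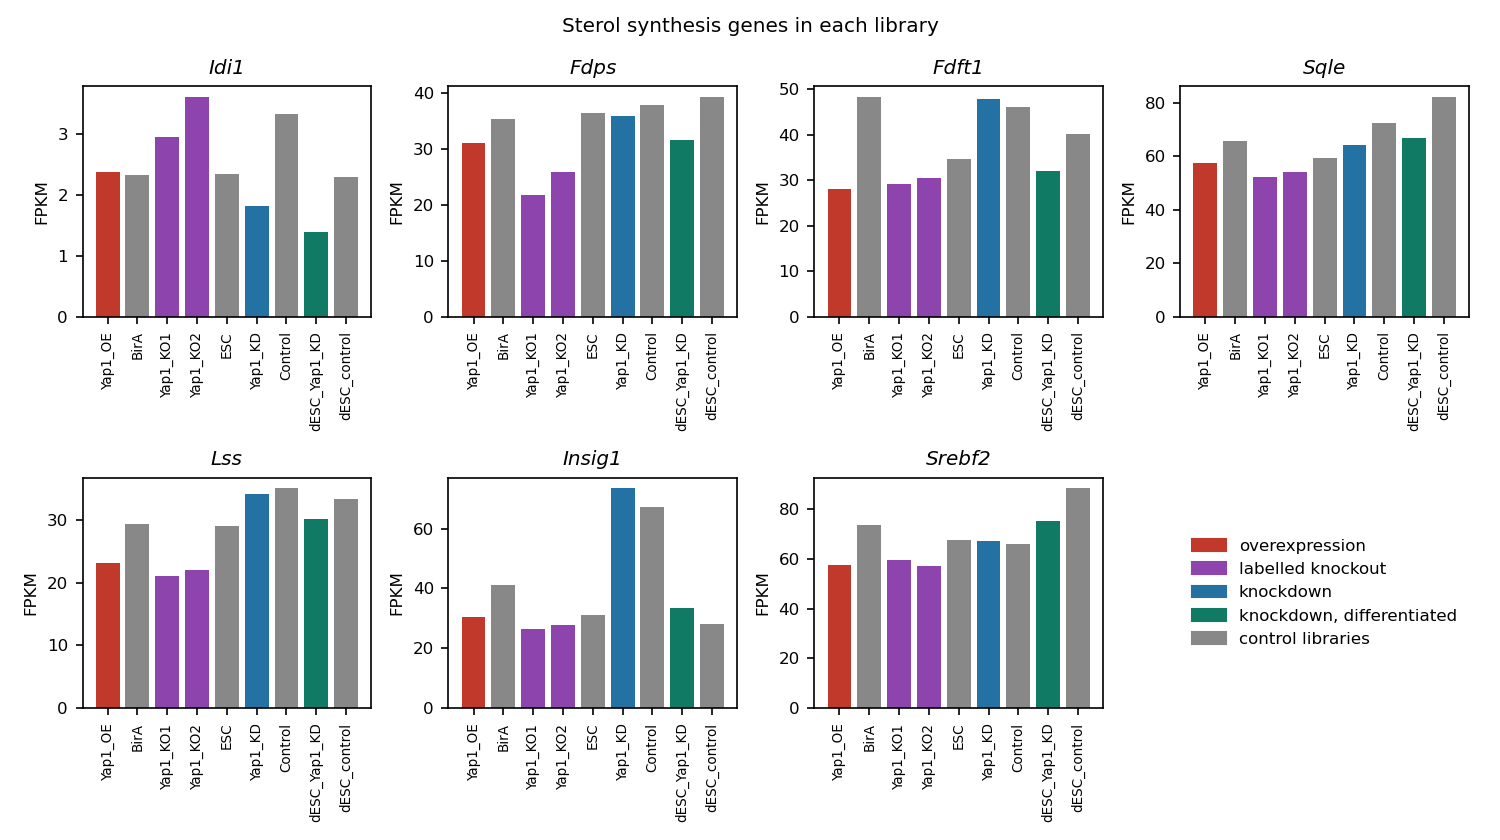
FPKM of the 7 genes in each library, 1 bar a library, coloured by group with controls in grey. Insig1 is at 73.4 and 67.2 FPKM in Yap1_KD and Control and at 41.3 or less elsewhere, and the vertical scale of Idi1 ends under 4 FPKM.

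Counting error was small against these levels except for Idi1. Estimated fragments ran from 55 to 224 for Idi1 and from 276 (Fdps) to 8624 (Srebf2) for the other genes. The Yap1_KD over Control ratio of Idi1 was 0.547 with a 95% counting interval of 0.432 to 0.693, which covers counting error only and no variation between cultures.

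Control libraries give a scale for these differences. Control against ESC, neither with a label of altered Yap1, had Insig1 at 67.2 against 30.9 FPKM, a 2.17-fold higher value, and 6 of the 7 genes above ESC with a median difference of 0.29 in log2(FPKM + 1). The median over all 11807 genes tested was -0.01. Insig1 alone was past 1.5-fold higher, a size that 11.9% of all genes reached, with 10.4% as far lower. It was also past 2-fold, as were 3.02% of all genes, and 50.8% of all genes lay below ESC. In BirA against ESC, 0 of 7 genes were past 1.5-fold in either direction, where 5.34% of all genes were higher and 4.07% lower. The largest of these differences were those of Fdft1 (0.47) and Insig1 (0.40). Msmo1, a methylsterol oxidase of the pathway, differed more between controls, at 89.7 FPKM in Control, 60.5 in BirA and 30.4 in ESC.

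In the overexpression library 6 of the 7 genes were lower than in BirA, with a median difference of -0.33 in log2(FPKM + 1) against 0.02 over all 11599 genes tested. Fdft1 had the largest difference, -0.76, and was at 58.0% of BirA. Insig1 was at 73.6%, Srebf2 at 78.5% and Lss at 78.7% of BirA, and Idi1 at 103%. The Idi1 difference, 0.03, was -0.0085 with libraries centred on their median and -0.11 with the GC trend removed. Fdft1 was the only one past 1.5-fold lower and 0 of 7 were past 1.5-fold higher, where 7.98% of all genes were past that size lower and 5.39% higher. None was past 2-fold lower, a size that 2.35% of all genes reached. A value below BirA of any size was found for 47.7% of all genes. Of 15 other enzymes of the pathway, 11 were lower, with 2 past 1.5-fold: Tm7sf2, a sterol reductase (3.53 against 7.17 FPKM), and Msmo1 (38.6 against 60.5). Set against ESC in place of BirA, the median was -0.22 and 0 of the 7 genes were past 1.5-fold. Among all genes tested, 829 were past that size lower and 737 higher in this setting. Against ESC, Insig1 stood at 98.2% and Fdft1 at 81.1%. The summed FPKM of 5 trophoblast markers was 224 in Yap1_OE against 54.4 in BirA, with Krt8 at 63.4 against 7.32, Krt18 at 130 against 17.5, Tfap2c at 29.9 against 29.6 and Cdx2 and Elf5 under 1 FPKM in both. That of 6 ES cell markers was 1971 against 2493. Their part in these differences was not tested.

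The libraries labelled Yap1_KO1 and Yap1_KO2 were both below ESC for 6 of the 7 genes, with Idi1 above it in both. Both libraries were below ESC for 39.8% of all 11538 genes tested. None of the 7 was past 1.5-fold lower in both, as 3.44% of all genes were, and their median difference was -0.20 against 0.01 over all genes. With ESC, BirA and Control together as controls the median was -0.50, with Insig1 at -0.69 and Fdft1 at -0.50. By limma after adjustment 0 of the 7 passed with these controls, where 0 of all genes were called higher and 1 lower. Fdps had the largest difference, -0.60 ± 0.15 (SE) in log2(FPKM + 1), with a limma p of 0.159 after Benjamini-Hochberg adjustment, and was at 59.8% and 71.1% of ESC. Lss followed with -0.41 and a standard error of 0.11 (limma, adjusted p = 0.171). The Idi1 difference was 0.35 with a standard error of 0.19, and the remaining genes lay between -0.21 and -0.15 (limma, adjusted p from 0.289 for Srebf2 to 0.408 for Sqle). By limma 0 of the 7 genes passed after adjustment and 2, Fdps and Lss, had an unadjusted p under 0.05, where 0.0173% of all genes were called higher, 0.156% lower and 23.1% had an unadjusted p under 0.05. With 1 residual degree of freedom, a p that misses the threshold does not show that a level was the same.

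**Figure D2:**
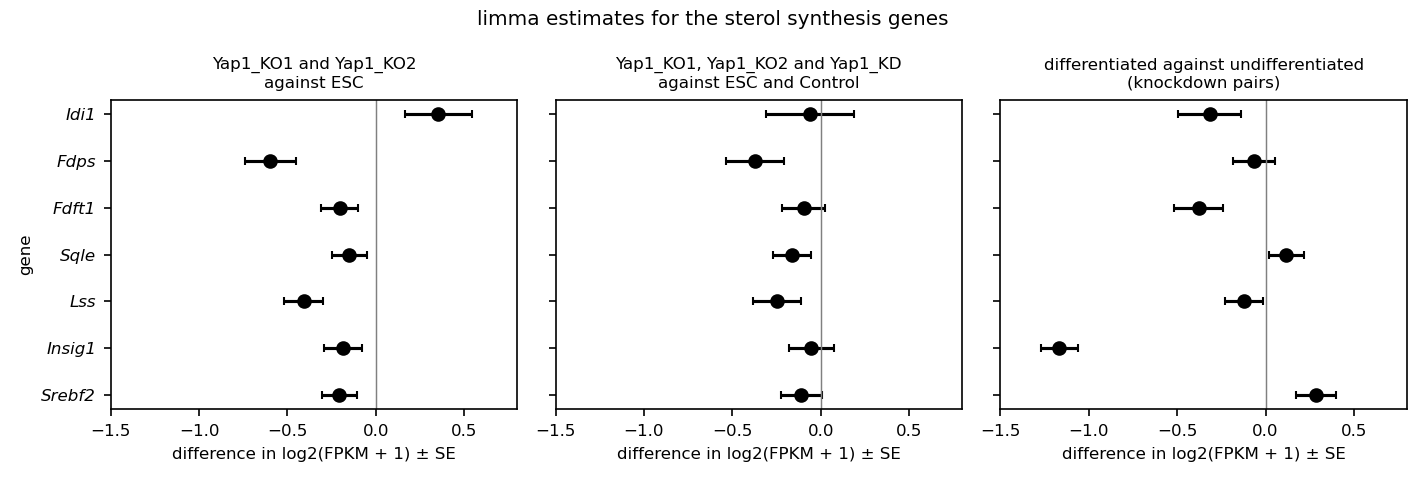
Difference in log2(FPKM + 1) of each gene with its standard error in the 3 limma fits. The fit of differentiation puts Insig1 at -1.17, while Fdps is the lowest gene in the fits of the knockout-labelled and knockdown libraries.

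Differences of the knockout-labelled pair followed transcript GC content across all genes (Spearman rho -0.59 over 11480 genes, a description, since genes are not independent). Idi1 had the lowest GC content of the 7 genes, 40.8%, and Srebf2 the highest, 58.0%, where the median of expressed genes was 51.2%. With the trend removed Idi1 was at -0.025 and Srebf2 at 0.029, both with the opposite sign, while Fdps was at -0.50, Lss at -0.34 and Insig1 at -0.34. Of 15 other pathway enzymes 0 passed by limma after adjustment and 5 had an unadjusted p under 0.05. Mvd, the decarboxylase that makes isopentenyl diphosphate, was at 23.8 and 26.9 FPKM against 41.1 (limma, adjusted p = 0.150), and the mevalonate kinase Mvk at 21.4 and 15.9 against 29.0 (limma, adjusted p = 0.196). Srebf1, the related factor that favours fatty acid genes, was at 17.3 and 17.9 against 28.0 FPKM (limma, adjusted p = 0.150). Thy1, which makes up nearly all of the fibroblast marker sum, was at 39.2 and 32.0 FPKM against 18.7, while Col1a2, Col3a1, Postn and Dcn were under 1 FPKM. Pdss1, a prenyl diphosphate synthase for ubiquinone, was at 21.9 and 24.4 against 14.8 (limma, adjusted p = 0.151).

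**Figure D3:**
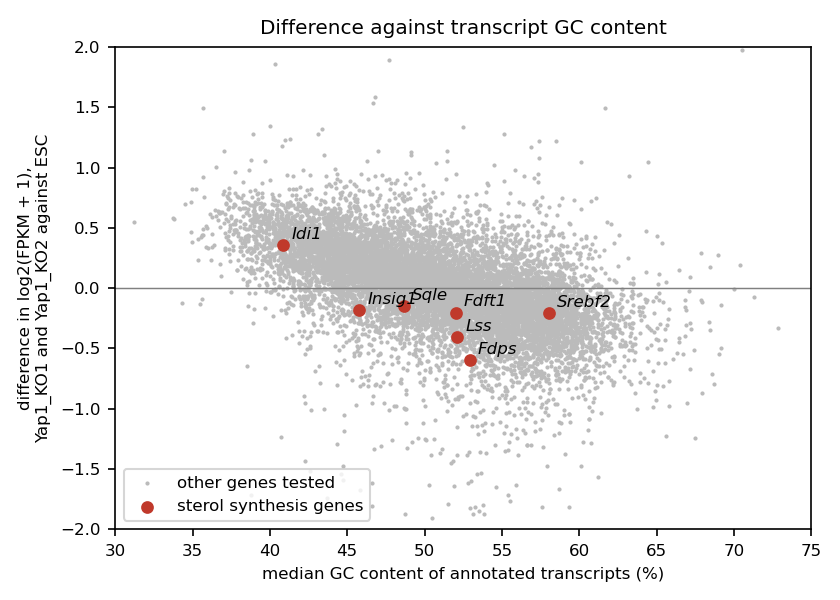
Difference in log2(FPKM + 1) of the knockout-labelled pair against ESC (vertical) by median GC content of a gene's annotated transcripts (horizontal), for 11480 genes of which 63 lie beyond the vertical axis. The cloud slopes downward, with Idi1 at 40.8% GC and 0.35 on its upper left and Srebf2 at 58.0% GC and -0.21 on its right.

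Knockdown in undifferentiated cells gave small differences for 6 of the 7 genes, of which Sqle lay farthest from Control at -0.17 in log2(FPKM + 1). Idi1 lay further off, at 54.7% of Control with a difference of -0.62, and it was the only gene past 1.5-fold, where 2.02% of all 11861 genes were lower and 2.2% higher by that size. It was not past 2-fold, as 0.506% of all genes were. Below Control lay 4 of the 7 genes and 48.5% of all genes. With the GC trend removed Idi1 was at -0.54 and no longer past 1.5-fold. The median of the 7 genes was -0.03 against 0.01 over all genes. Of the 3 genes above Control, Srebf2 was at 0.02, but at -0.0045 with libraries centred and at -0.0051 with the GC trend removed. Sqle was at 88.5% of Control and Insig1 at 109%. Of 15 other enzymes 0 were past 1.5-fold, and the isomerase Ebp had the largest positive difference, 0.33 (14.4 against 11.3 FPKM).

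The knockout-labelled and knockdown arms of undifferentiated cells were also fitted together, with a term for the arm. All 7 differences were below 0, from -0.05 for Insig1 to -0.37 for Fdps, and the median was -0.11 against 0.01 over all 12128 genes. The median was -0.17 without Yap1_KO2 and -0.19 with the GC trend removed, where Srebf2 lay above 0, at 0.015. By limma 0 of 7 passed after adjustment (adjusted p from 0.782 for Fdps to 0.953 for Idi1) and 0 had an unadjusted p under 0.05, where 0% of all genes were called higher, 0.0165% lower and 6.75% had an unadjusted p under 0.05. Below 0 lay 47.5% of all genes. Idi1 at -0.06 averaged opposite directions in the arms, 0.35 in the knockout-labelled pair and -0.62 in Yap1_KD. So did Fdft1 (-0.20 and 0.05), Insig1 (-0.19 and 0.13) and Srebf2 (-0.21 and 0.02). Only Fdps, Lss and Sqle were below 0 in both arms.

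In differentiated cells 6 of the 7 genes were lower under knockdown than in dESC_control, with a median of -0.30 against -0.01 over all 11845 genes tested, of which 51.5% were lower. Idi1 was at 61.0%, Fdft1 at 79.6%, Fdps at 80.6%, Sqle at 81.1%, Srebf2 at 85.2% and Lss at 90.6% of dESC_control, and Insig1 at 119%. None of the 7 was past 1.5-fold on the log2(FPKM + 1) scale, where 10.9% of all genes were lower and 5.49% higher by that size. With a pseudocount of 0.1, Idi1 passed. Of 15 other enzymes 12 were lower and 0 past 1.5-fold. Other genes of sterol handling lay further apart on the log2(FPKM + 1) scale, which understates the difference of a low gene such as Idi1. Soat1, which esterifies cholesterol, was at 57.8 against 83.7 FPKM (-0.53). Npc2, a lysosomal cholesterol carrier, was at 94.9 against 62.6 (0.59). The fatty acid desaturases Fads1 and Fads2 were at 29.9 against 16.9 and at 73.8 against 42.8 FPKM, and Abcg1, a sterol exporter, at 1.65 against 0.468. In the same libraries the summed FPKM of 5 trophoblast markers was 190 against 1334 and of 4 streak and mesoderm markers 34.8 against 105. The first sum was mostly Krt8 (65.3 against 486) and Krt18 (102 against 832). Cdx2 was also lower, at 3.97 against 6.87, while Tfap2c was at 18.4 against 8.87 and Elf5 under 1 FPKM in both. The part of cell make-up in these differences was not tested. The difference between the knockdown effects in the 2 states was not tested.

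**Figure D4:**
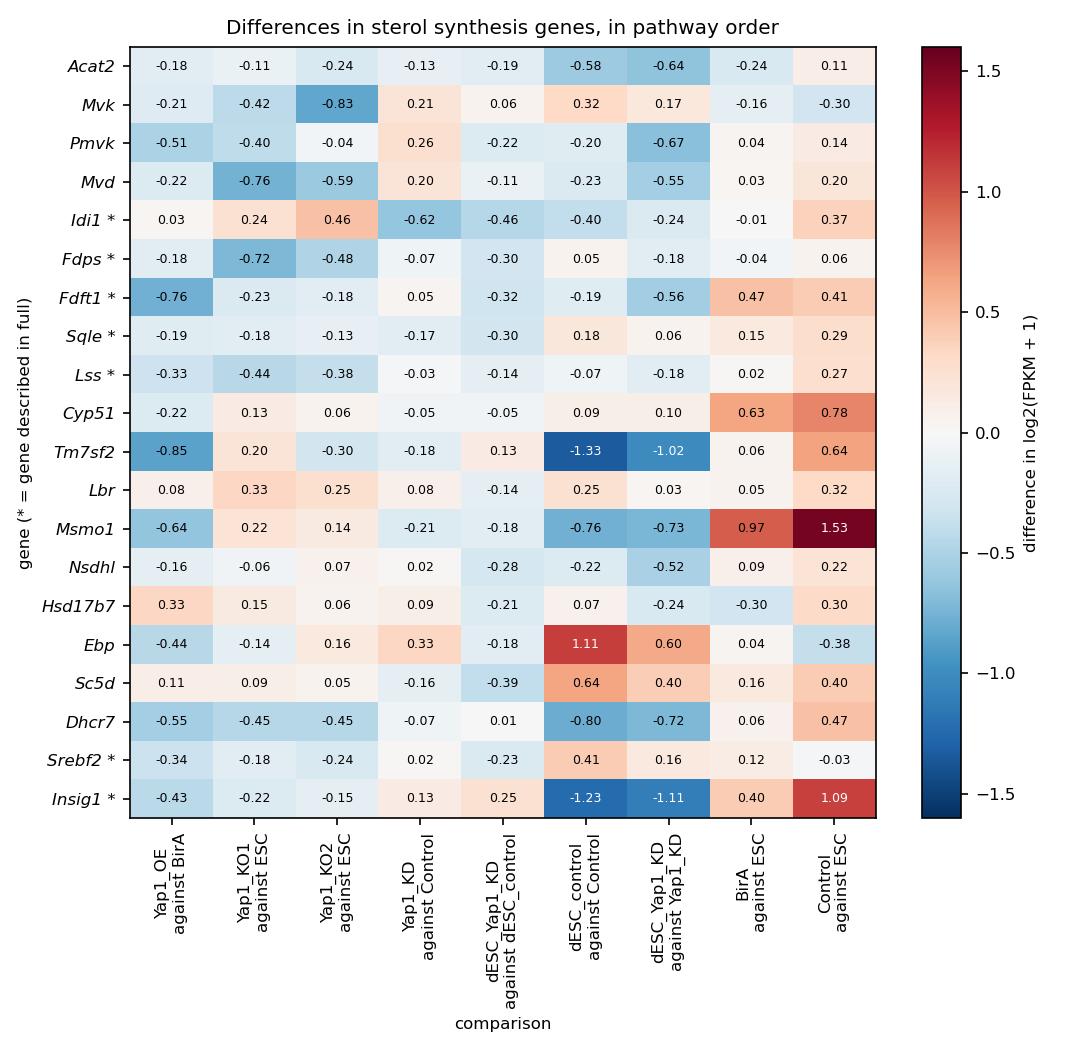
Difference in log2(FPKM + 1) of sterol synthesis genes (1 a line, in pathway order, regulators at the bottom) in 9 comparisons of single libraries (columns), with blue for lower and red for higher. Insig1 and Msmo1 are red in Control against ESC (1.09 and 1.53) and blue in dESC_control against Control (-1.23 and -0.76).

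Differentiation was the comparison with the largest difference for a single one of the 7 genes. Insig1 was at 28.1 FPKM in dESC_control against 67.2 in Control, and at 33.6 in dESC_Yap1_KD against 73.4 in Yap1_KD, which is 41.9% and 45.7%. In a fit over both pairs with a term for knockdown, Insig1 fell by 1.17 ± 0.10 (SE) in log2(FPKM + 1), with a limma p of 0.0139 after Benjamini-Hochberg adjustment, and was lower in both pairs. This fit has 1 residual degree of freedom, and its spread is the difference between the pairs. Each group is a single library, so neither SE nor p measures variation between replicate cultures. Insig1 was the only one of the 7 genes to pass, where 18.6% of all 12719 genes were called lower and 20.3% higher, and 53.4% had an unadjusted p under 0.05. Without a filter on low values the limma adjusted p of Insig1 was 0.0634 and 0 of all genes passed. Srebf2 was at 88.4 FPKM in dESC_control against 66.2 in Control and at 75.3 in dESC_Yap1_KD against 67.2 in Yap1_KD, a difference of 0.29 with a standard error of 0.11 that did not pass (limma, adjusted p = 0.121). Fdft1 had -0.38 with a standard error of 0.14 (limma, adjusted p = 0.102), and passed only with libraries centred on their median.

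The Insig1 difference depended on which undifferentiated library was taken. The dESC_control library was at 90.9% of ESC and at 68.2% of BirA, differences of -0.13 and -0.54, and neither was past 1.5-fold. These comparisons were added after the data were seen. In dESC_control against Control 21.1% of all 12436 genes were past 1.5-fold lower and 24.7% higher, and in dESC_Yap1_KD against Yap1_KD 21.4% and 21.8% of 12281 genes, with Insig1 the only one of the 7 past that size in each. Insig1 was past 2-fold lower in both, as were 10.1% and 10.4% of all genes. The medians of the 7 genes were -0.07 and -0.18, against 0.04 and 0.0035 over all genes. With ESC or BirA in place of Control the median in dESC_control was above 0, at 0.19 and 0.15. Lss was then at 0.19 and 0.18, and Fdft1 at 0.21 against ESC. Sums of the 5 trophoblast markers were 1334 FPKM in dESC_control against 45.7 in Control and 190 in dESC_Yap1_KD against 48.2 in Yap1_KD. Krt8 and Krt18, keratins of simple epithelia, made up most of the sum in the differentiated libraries. Cdx2 was also higher there, at 6.87 FPKM in dESC_control against 0.0648 in Control and at 3.97 in dESC_Yap1_KD against 0.0268 in Yap1_KD. Tfap2c fell by 0.94 (limma, adjusted p = 0.0247) and Elf5 was under 1 FPKM in every library. The part of cell make-up in the differences was not tested.

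Of the 15 other enzymes, 3 rose and 5 fell with differentiation by limma after adjustment, in the same fit of single libraries. Over all genes 20.3% rose and 18.6% fell, and without the filter on low values none passed. Among those that rose were the isomerase Ebp, by 0.86 (limma, adjusted p = 0.0329), at 25.5 and 22.3 FPKM in the differentiated libraries dESC_control and dESC_Yap1_KD against 11.3 in Control and 14.4 in Yap1_KD, and the desaturase Sc5d, by 0.52. Among those that fell, Tm7sf2 fell by 1.17, Dhcr7, a sterol reductase, by 0.76, Msmo1 by 0.74 and Acat2, which condenses acetyl-CoA, by 0.61. The direction of Msmo1 depended on the undifferentiated library: it was at 52.4 and 46.3 FPKM in dESC_control and dESC_Yap1_KD against 89.7 in Control and 77.2 in Yap1_KD, but at 30.4 in ESC. Among 9 genes of uptake, transport and storage 5 rose and 1 fell by limma, with Soat1 among those that rose (83.7 and 57.8 FPKM against 20.4 and 17.3 in the same order). Of 10 fatty acid genes 1 rose and 3 fell: the synthase Fasn rose by 1.49, and the acetyl-CoA synthetase Acss2 and the desaturase Scd1 fell by 1.98 and 1.27. Of 5 genes of SREBP control, Scap rose by 0.91 and Insig2, the second INSIG gene, fell by 0.51, and of 8 isoprenoid users the farnesyltransferase subunit Fntb rose by 0.81 and Coq2 fell by 0.52. Coq2 was at 15.4 and 12.6 FPKM in dESC_control and dESC_Yap1_KD against 22.7 in Control and 18.3 in Yap1_KD, but at 11.2 in ESC. Insig2 was at 12.8 and 11.6 FPKM in dESC_control and dESC_Yap1_KD, and at 11.7 in ESC. Fntb was at 26.6 and 26.8 FPKM in the same order, and at 24.9 in ESC. Scap and Dhcr7 kept their direction against ESC and BirA. Of 4 efflux and LXR genes tested, Apoe and the receptor gene Nr1h3 rose and Abcg1 fell. Apoe was at 503 and 741 FPKM in dESC_control and dESC_Yap1_KD, but at 644 in BirA. Abca1, the sterol exporter of the LXR pathway, was at 0.222 and 0.205 FPKM against 0.525 and 0.574 and lay under the filter. In ESC, also undifferentiated, Fasn stood at 86.6 FPKM.

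The 7 genes were not uniform in how they moved over the 9 libraries. Of their 21 pairs 15 had a Pearson correlation of log2(FPKM + 1) above 0, with a median of 0.65, from -0.53 for Idi1 with Srebf2 to 0.89 for Fdps with Lss. All 6 pairs below 0 were those of Idi1. The libraries share controls and depth differences, so these values are a description. The mean of the 7 centred genes was highest in Control (0.31) and Yap1_KD (0.21) and lowest in Yap1_KO1 (-0.28), Yap1_OE (-0.19) and Yap1_KO2 (-0.19). Of 8420 genes averaging at least 5 FPKM, those whose profile over the 9 libraries was most like this mean were Hpn (r = 0.97), G6pc3 (0.94), Rpp21 (0.94), Carkd (0.93) and the small RNA Snora64 (0.93). Of the pathway genes, Coq2, a prenyltransferase of ubiquinone synthesis, came nearest at rank 9 (0.92), and Msmo1 stood at rank 25 (0.88), Mvd at rank 34 (0.87) and Dhcr7 at rank 46 (0.86). Others stood far from the mean, among them Acat2 at rank 1689 (0.36) and Ebp at rank 3424 (0.02). Fasn ran the other way, at rank 5977 (-0.43).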

How the data were processed

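The deposited table gives 1 value per gene and library for 9 libraries. The authors made FPKM values (fragments per kilobase of transcript and M mapped fragments) with TopHat2 and Cuffdiff on mm9, per the submitters' processing notes. The sources used here give no versions, annotation or strandedness, and the file does not name its unit. FPKM was taken from Cuffdiff and from the values. Of 23277 rows, 4746 blank rows and 27 rows with a symbol turned into a date were left out, which left 18504 genes.

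Cuffdiff scales libraries against each other. Depth was therefore estimated from the steps between low values, with the scale set on 200 single-transcript genes (quartiles 11.9 and 14.8 M fragments for BirA). Estimated fragments of a gene use its longest coding transcript in GENCODE M21, and 95% counting intervals of ratios cover counting error only.

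Differences were taken on log2(FPKM + 1) for every gene reaching 1 FPKM in some library of the comparison, so differences of low genes are understated. Single libraries were compared by size, with 1.5-fold as the call and no p-value. The remaining fits were made by limma (version 3.58.1, R 4.3.3), with its variance trend on and p-values adjusted by Benjamini-Hochberg over all genes tested. They were tried on simulated data with independent noise at the spread of the knockout-labelled pair and no GC trend. That trial cannot show that the p-values hold in the real libraries. Nothing in the labels says that the knockout-labelled pair came from separate cultures, so p-values may measure technical spread. Near copies were sought with blastn at 90% identity over at least 200 nt. GC content and lengths come from GENCODE M21 and promoters from RefSeq, both of another build than the authors' mm9.

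The genes, lists and comparisons were chosen with earlier results of these data known. Named genes are the members, Yap1, the 4 highest and 4 lowest pathway genes of a comparison, Srebf1 and Abca1, and the 5 genes most like the members over the libraries. Genes named outside this rule, among them Acat2, Dhcr7, Sc5d, Scap, Insig2 and Nr1h3, were chosen after their values were seen, because they passed the test of differentiation. Some genes this rule names are not reported here, though counts over lists include them. Alternatives changed the pseudocount, filter, centring, GC trend, small RNA rows, fold, controls, limma trend, the knockdown term and the knockout-labelled library left out.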

Additional observations from a re-analysis of the deposited data

How the results depend on the processing

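Over the 8 comparisons, single genes gave 461 values under an alternative. Of these, 451 kept their side of the threshold or moved by less than 0.38 in log2. That is the spread within the knockout-labelled pair over genes averaging at least 5 FPKM. The rule is loose, since many differences of the 7 genes were themselves smaller than 0.38. A limma value that stayed above the p threshold also counted as kept. Insig1 in the knockout-labelled pair did so at -0.69 with ESC, BirA and Control as controls, against -0.19 with ESC alone. The count is thus no measure of how stable the sizes are. With the GC trend removed the sign changed for Idi1 (-0.025) and Srebf2 (0.029) in the knockout-labelled pair and for Srebf2 (0.015) in the joint fit. Small differences also changed sign: Idi1 in Yap1_OE and Srebf2 in Yap1_KD with centring or the GC trend removed, Fdps in dESC_control against Control under the same settings (-0.11 and -0.075), Sqle in dESC_Yap1_KD against Yap1_KD with centring (-0.017), and Lss and Fdft1 in dESC_control with other controls. Medians of the 7 genes that moved over 1.5 times, beside those in the report, lay between -0.073 and -0.0052 in Yap1_KD, between -0.23 and -0.010 in dESC_control against Control, and at -0.24 with centring in the fit of differentiation. The cause of the changes listed here was not tested.

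The count of the 7 genes past 1.5-fold lower was 1 in Yap1_OE against BirA and 0 at 2-fold or against ESC. In Yap1_KD against Control it was 1, and 0 at 2-fold, with a pseudocount of 5, with a filter at 5 FPKM (which leaves out Idi1) and with the GC trend removed. In dESC_Yap1_KD against dESC_control it was 0, and 1 with a pseudocount of 0.1. In dESC_control against Control it was 1, and 0 against ESC or BirA. In dESC_Yap1_KD against Yap1_KD it was 1, and 2 with libraries centred. The fit of differentiation calls by limma after adjustment and not by fold. It called 1 of the 7 genes lower, and 2 with libraries centred. That fit called 0 without a filter, where Insig1 was at -1.17 with an adjusted p of 0.0634 by limma, and over its alternatives Insig1 ran from an adjusted p of 0.00620 to 0.0634.

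All genes called higher and lower by limma in the knockout-labelled pair were 2 and 18. They were 1 higher with a pseudocount of 5 or without limma's trend, 0 and 0 without a filter, 7 and 35 with libraries centred, 10 and 38 without small RNA rows, and 0 and 1 with ESC, BirA and Control as controls. The joint fit of the knockout-labelled and knockdown arms called 0 and 2. It called 1 lower with a pseudocount of 0.1 or a filter at 5 FPKM, 0 lower without a filter, 1 higher with the GC trend or small RNA rows removed, and 1 to 6 higher and 3 to 9 lower when a knockout-labelled library was left out. The fit of differentiation called 2584 and 2368, and 0 and 0 without a filter. Without the replicate block, here the knockdown term, the median difference of the 7 genes was -0.12, as with it. Idi1 is limited by depth.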
